A study of Rattus norvegicus with 2 samples.

Results

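Elastic fibres give an artery its recoil, and the 10 genes described here encode their core protein, their scaffold and the enzymes that crosslink them: Eln, Fbn1, Fbln1, Fbln5, Efemp2, Emilin1, Mfap2, Mfap4, Lox and Loxl1. They were taken as a named set from the 15159 genes that could be named on a rat expression array. Of the 10 members, 9 had at least 1 matched probe, with 11 probes and 26 spots in all. Each of these 26 spots was well above background on both arrays. No probe was matched to Lox, the founding lysyl oxidase, so it was not analysed here. Of 30367 probes, 12361 matched no gene, and whether any of them reads Lox was not checked.

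RNA came from an intracranial aneurysm lesion of rat, 3 weeks after induction (1 array), and from intracranial arterial wall of an untreated rat or rats (1 array). Strain, sex, age, the way the aneurysm was induced and the number of animals behind each RNA are not stated by the labels. With 1 array per group there is no replicate check, no test across samples and no p-value, so each difference describes these 2 arrays. In bulk tissue a change in the number of cells of one type and a change in RNA per cell cannot be told apart.

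In the wall, smooth muscle cells and fibroblasts secrete tropoelastin, which coacervates on a scaffold of fibrillin microfibrils. Fibulins bring it together with lysyl oxidases, copper enzymes that oxidise its lysines so that neighbouring chains crosslink. Arteries inside the skull lack the outer elastic lamina of other arteries, and loss of the inner elastic lamina is a known feature of intracranial aneurysm.

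Promoter sequence was held for 5 of the 10 members (Efemp2, Fbln5, Fbn1, Loxl1 and Mfap2), and 3 are shown: those in which a searched motif was found. They pair members that were higher in the aneurysm array (Fbln5 and Mfap2) with one that was nearly level (Efemp2). Each runs 5′ to 3′ on its own strand, from 250 bases before to 50 after the RefSeq start, build GRCr8. Capitals mark the GC box, GGGCGG or its reverse complement, with overlapping matches joined.
Efemp2, chr1:212211472-212211771, plus strand: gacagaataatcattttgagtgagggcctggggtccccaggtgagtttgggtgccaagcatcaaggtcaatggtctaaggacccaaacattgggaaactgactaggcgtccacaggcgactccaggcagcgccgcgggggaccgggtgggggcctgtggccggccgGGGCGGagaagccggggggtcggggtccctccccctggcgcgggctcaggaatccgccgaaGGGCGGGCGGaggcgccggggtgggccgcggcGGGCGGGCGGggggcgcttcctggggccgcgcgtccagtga
Fbln5, chr6:126742657-126742956, minus strand: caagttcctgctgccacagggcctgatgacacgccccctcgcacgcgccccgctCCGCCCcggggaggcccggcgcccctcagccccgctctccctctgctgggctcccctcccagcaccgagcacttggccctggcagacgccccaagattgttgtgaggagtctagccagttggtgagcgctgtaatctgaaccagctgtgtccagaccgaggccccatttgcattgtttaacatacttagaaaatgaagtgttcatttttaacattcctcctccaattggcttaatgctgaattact
Mfap2, chr5:158597478-158597777, plus strand: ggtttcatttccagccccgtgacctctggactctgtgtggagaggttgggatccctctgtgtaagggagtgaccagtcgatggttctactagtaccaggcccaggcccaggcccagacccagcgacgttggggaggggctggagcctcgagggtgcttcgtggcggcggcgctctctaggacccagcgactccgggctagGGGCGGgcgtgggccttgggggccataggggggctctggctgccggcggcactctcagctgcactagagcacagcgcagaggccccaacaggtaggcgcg

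Efemp2 held 5 GC boxes, Fbln5 held 1 and Mfap2 held 1, counted on both strands with overlaps. The windows of Fbn1 and Loxl1 held 0. Of 33469 promoters of the same length, 33.1% held at least 1. The TATA box (TATAAA, in 14.2% of all promoters), the AP-1 element (TGANTCA, 7.33%), the Smad element (GTCTAGAC, 0.197%) and the CArG box (1.64%) were also searched on both strands, and 0 of the 5 windows held any of them. The GC content of the 5 windows lay between 58.3% and 71.0%, against a median of 51.7% over all promoters. A match is a run of letters and not a measured binding site.

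Most of the measured elastic fibre genes had higher signal in the aneurysm array, by less than 2-fold. Of the 9, 8 were higher (50.2% of all 11902 measured genes were), 2 were at least 1.5-fold higher (4.25% of all genes) and 0 were at least 2-fold higher (0.882% of all genes). Of the 9, 0 were at least 1.5-fold lower (8.43% of all genes) or 2-fold lower (3.91% of all genes). The median difference of the 9 was 0.53 on the log2 scale, and that of all genes was 0.00. Mfap4 and Eln led, Fbn1, Loxl1, Fbln5, Mfap2 and Fbln1 followed, and Efemp2 and Emilin1 lay near 0.

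Levels are given below as processed spot intensity, which is linear and has no unit. The aneurysm array was 1.29 times brighter at its 75th percentile, so differences are log2 aneurysm minus control after each array's 75th percentile was subtracted. The value after ± is the spot error, pooled from the spread between repeat spots of like signal within an array. It holds no variation between animals. The error model of the scanner software gave a larger error for most members, 0.065 to 0.20 across the 9. Levels of different probes depend on the probe and were not set against each other.

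**Figure D1:**
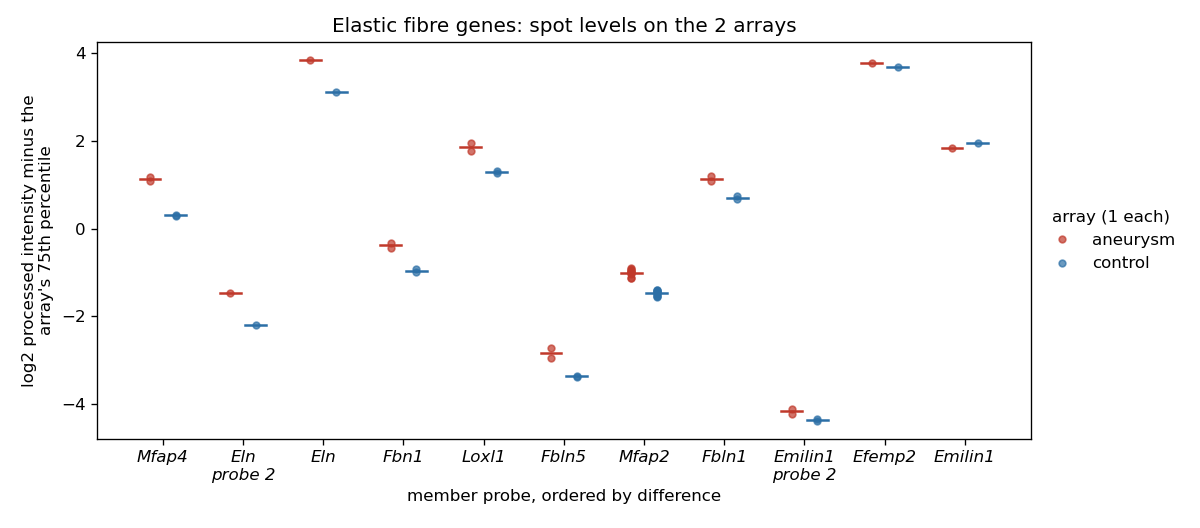
Spot levels of the 11 probes of 9 elastic fibre genes, as log2 processed intensity minus the array's 75th percentile, with the aneurysm array left of the control array. Each point is a spot and each bar the mean of a probe, and levels are comparable within a probe only; the aneurysm spots lie above the control spots for every probe except the first of Emilin1.

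Eln, which encodes tropoelastin, the core of the fibre, was measured by 2 probes of 1 spot each. The brighter probe read 11368 in the aneurysm array and 5366 in the control array. The dimmer probe read 288 in the aneurysm array and 135 in the control array. Both were higher in the aneurysm array, and without the normexp background correction by nearly the same amount. The brighter probe gave 0.71 ± 0.08, which is 1.64-fold, and the dimmer probe 0.73 ± 0.19. With normexp they gave 0.73 and 0.54, and with normexp on median signal 0.76 and 0.39. The difference of Eln was above that of 97.5% of all measured genes.

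The microfibril members Fbn1, Mfap2 and Mfap4 were each higher in the aneurysm array. Fbn1 encodes fibrillin-1, the main scaffold protein of the microfibril. Its 2 spots read 588 and 641 in the aneurysm array, against 312 and 328 in the control array, without overlap. The difference was 0.57 ± 0.08, or 1.49-fold, just under the 1.5-fold line.

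Mfap2 encodes MAGP-1, a small protein bound to fibrillin. It had the most spots of the members, 10 per array. The spots ran from 366 over a median of 402 to 427 in the aneurysm array and from 210 over a median of 226 to 237 in the control array. Every aneurysm spot was brighter than every control spot. Between spots at the same place on the 2 arrays the difference ranged from 0.37 to 0.54, and the mean difference was 0.46 ± 0.04, or 1.38-fold. With normexp the mean difference was 0.37, and with normexp on median signal 0.33.

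Mfap4, which encodes a microfibril-associated glycoprotein that binds elastin and fibrillin, had the highest difference of the set. Its 2 spots read 1691 and 1799 in the aneurysm array, against 761 and 766 in the control array. The spots did not overlap, and the difference was 0.82 ± 0.06, or 1.77-fold. It was above that of 98.5% of all genes.

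The fibulins differed among themselves. Fbln5 encodes fibulin-5, which binds both tropoelastin and LOXL1 and tethers them to the microfibril. Its 2 spots read 104 and 121 in the aneurysm array, against 59.8 and 60.7 in the control array. The difference was 0.53 ± 0.18 (1.44-fold), but Fbln5 was dim, and with normexp background correction, which adds an offset, it was 0.22.

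Fbln1 encodes fibulin-1, found in elastic fibres and basement membranes. It read 1696 and 1822 in the aneurysm array and 985 and 1035 in the control array. Its difference was 0.43 ± 0.06, or 1.35-fold, with no overlap between spots.

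Efemp2 encodes fibulin-4, which brings lysyl oxidase to tropoelastin. Its only spot read 10829 in the aneurysm array and 7955 in the control array. After scaling this left 0.08 ± 0.07, or 1.05-fold, about the size of the spot error. The difference of Efemp2 was above that of 60.8% of genes, where those of the 7 leading members were each above 90% of genes.

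Emilin1 encodes an elastin microfibril interface protein that also binds pro-TGF-beta. Its brighter probe, with 1 spot, read 2852 in the aneurysm array and 2392 in the control array. Scaled, this was -0.11 ± 0.08, the only value of a member below 0. Its dimmer probe read 43.1 and 46.7 in the aneurysm array against 30.0 and 30.9 in the control array, a difference of 0.19 ± 0.38. The probes differ in sign, and neither value exceeds 2 spot errors.

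Loxl1 encodes lysyl oxidase-like 1, the enzyme that crosslinks tropoelastin on the fibulin-5 scaffold. Its 2 spots read 2742 and 3065 in the aneurysm array, against 1500 and 1529 in the control array. The aneurysm spots were brighter throughout. The difference was 0.57 ± 0.06, or 1.48-fold, close to those of Fbn1 and Fbln5.

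**Figure D2:**
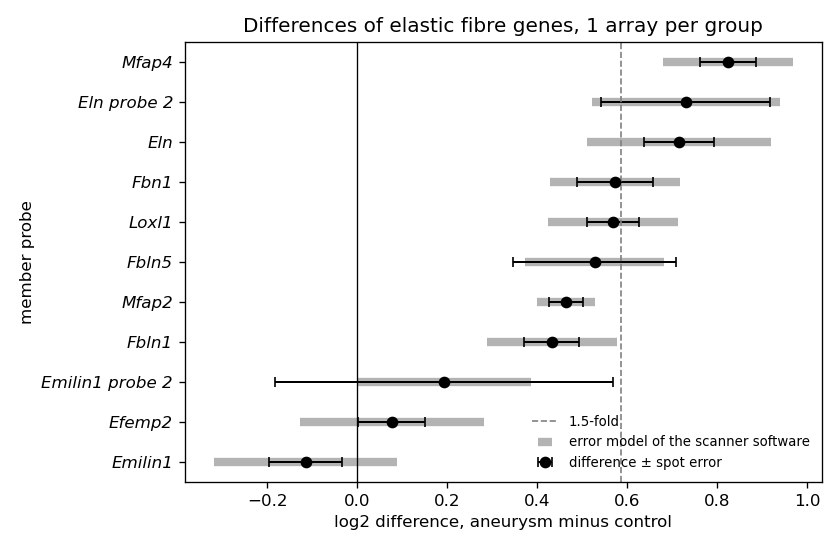
Log2 difference, aneurysm minus control, for each probe of the 9 members, with the spot error (black) and the error of the scanner software (grey band). The probes of Mfap4 and Eln lie right of the dashed 1.5-fold line, and the intervals of Efemp2 and of both Emilin1 probes lie around or next to 0.

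Across the set, 7 of 9 members differed by more than 2 spot errors, as did 43.4% of all genes above background on both arrays, in either direction. The same number of members differed by more than 2 errors of the software's model, against 28.4% of those genes. All 7 member probes with several spots had no overlap between the spots of the 2 arrays, which was common, holding for 66.8% of all such probes. Of the 26 member spots, 25 were higher in the aneurysm array, against 52.6% of all spots above background on both arrays. Spots share 1 RNA per array, so this shows precision of the reading and not agreement between animals.

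**Figure D3:**
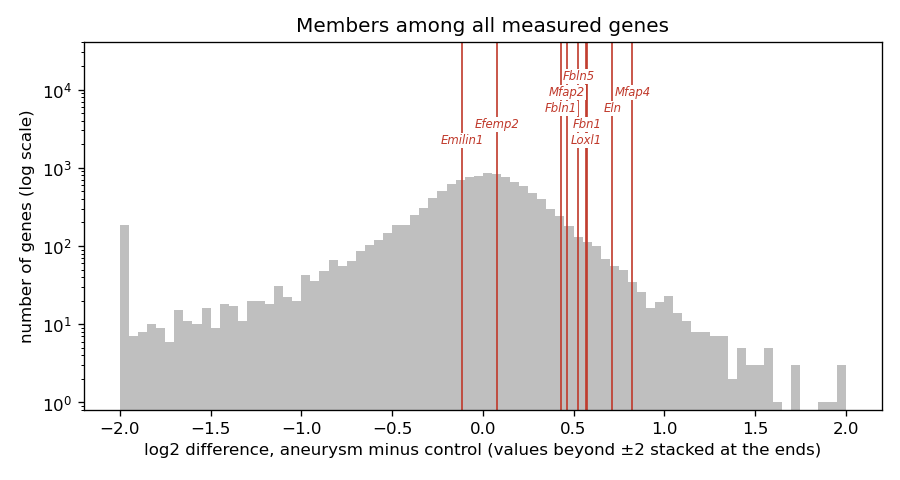
Number of genes (log scale) by log2 difference, aneurysm minus control, for 11902 genes, with a red line at each member. The members Fbln1 to Mfap4 lie between 0.43 and 0.82 on the right shoulder of the distribution, and Emilin1 and Efemp2 lie near its centre.

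Related genes of the elastic fibre were next counted from lists that do not overlap with the members. Of 18 further elastic fibre and microfibril genes, 9 could be measured and 8 of them were higher in the aneurysm array, with a median of 0.33 (0.20 with normexp). Mfap5, which encodes the second fibrillin-bound MAGP, read 7743 in the aneurysm array and 3923 in the control array, a difference of 0.61 ± 0.06. Adamtsl4, a microfibril-associated ADAMTS-like protein, was at 0.46 ± 0.18, and at 0.20 with normexp. Ltbp4 and Ltbp3, latent TGF-beta binding proteins of the fibrillin family, were at 0.40 ± 0.06 and 0.40 ± 0.08. Efemp1, which encodes fibulin-3, was at 0.33 ± 0.06. Fbn2, the fibrillin known mainly from development, went the other way from Fbn1. It read 994 in the aneurysm array and 977 in the control array, which after scaling was -0.34 ± 0.06.

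Most of the other crosslinking genes had smaller differences than Loxl1. Of 11 listed lysyl oxidases, copper suppliers and activating proteases, 8 were measured on both arrays, 6 were higher and the median was 0.13. The lysyl oxidases Loxl2 (0.24 ± 0.07) and Loxl3 (0.25 ± 0.14, and 0.12 with normexp) lay below Loxl1, and the signal of Loxl4 did not clear the background of either array. The copper importer Slc31a1 was at -0.28 ± 0.39. Tll2, a tolloid protease, was well above background in the aneurysm array only. Its bound was 1.57-fold higher there, on 1 spot with a spot error of 0.80. This and the other bounds below equal the measured difference or lie under it. They make no allowance for the spot error, so they are not lower limits.

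Of 12 proteases that can cut elastin, 6 were measured on both arrays, 5 of them higher, with a median of 0.32. The cysteine proteases Ctsl (0.49 ± 0.05) and Ctsk (0.35 ± 0.06) cleared the background of both arrays. Prtn3, proteinase 3 of neutrophils, and Mmp12, macrophage elastase, were well above background in the aneurysm array only and could count only as higher. Their bounds were 1.93-fold and 1.30-fold higher there, each with a spot error of 0.56. Mmp7, Mmp9, Elane and Ctsg did not clear it on either array.

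Of their 9 listed inhibitors, 8 were measured, 4 higher and 4 lower. Timp1, a broad inhibitor of matrix metalloproteinases, was at 0.29 ± 0.02 and the protease trap A2m at 0.31 ± 0.07. The elastase inhibitor Slpi was at -0.29 ± 0.14. Serpina1, which encodes the main plasma inhibitor of neutrophil elastase and is made by hepatocytes, read 68.9 in the aneurysm array and 960 in the control array, 18.0-fold higher in the control array (log2 -4.17, and -3.46 with normexp). It is also on the hepatocyte marker list given below.

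Of 8 elastin receptor genes, 6 were measured on both arrays, with 5 higher and 2 past 1.5-fold (4.25% of all genes were). These 2 were Lgals3, the elastin-binding galectin-3 (0.81 ± 0.06), and the integrin subunit Itgb1 (0.61 ± 0.06). Itgb3 cleared background in the aneurysm array only and could count only as higher (bound 1.64-fold, spot error 0.56). After normexp the bounds of Itgb3, Tll2, Prtn3 and Mmp12 could not be had. Itga5 was at 0.26 ± 0.18, and at 0.05 with normexp.

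Fibrillar collagens, the other load-bearing fibres of the wall, had a median near 0. Of 11 listed, 7 were measured, with 2 higher, 5 lower and a median of -0.04. Col1a1 was at 0.17 ± 0.05 and Col1a2 at -0.06 ± 0.05. The minor chains Col5a3 (-0.45 ± 0.06) and Col11a2 (-0.71 ± 0.06) were the lowest. With 1 array per group the distance between the lists was not tested.

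Among 6 TGF-beta ligands and receptors, 4 were higher and the median was 0.17 (3 and 0.02 with normexp). The ligand Tgfb3 stood apart from the rest, reading 2428 in the aneurysm array and 797 in the control array. Its difference of 1.24 ± 0.06 (2.36-fold) was larger than that of any member. Tgfb2 was at 0.26 ± 0.53 on 1 spot, and at -0.06 with normexp. The receptors Tgfbr2 (-0.28 ± 0.12) and Tgfbr3 (-0.24 ± 0.16) were lower in the aneurysm array.

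**Figure D4:**
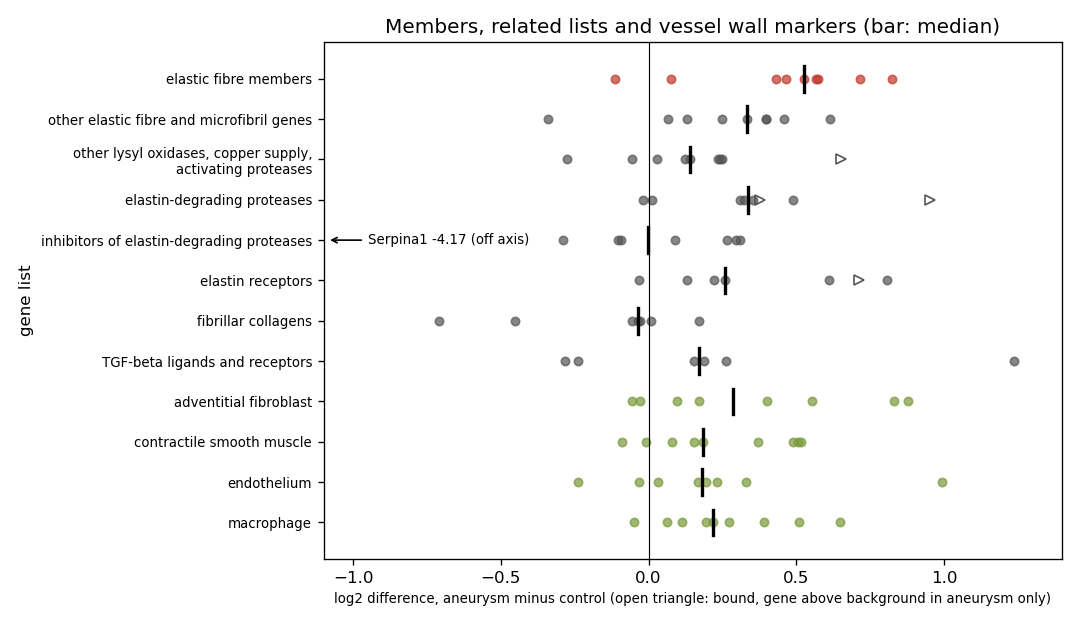
Log2 difference, aneurysm minus control, of each measured gene (points; open triangles are bounds) in the member set, 7 related lists and 4 marker lists of vessel wall cells, with the list median as a bar. With bounds included, the member median of 0.53 is the highest of the 12, and that of the fibrillar collagens, at -0.04, the lowest. Members and lists were chosen with earlier results of these data known, and the order of the lists was not tested.

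The cell content of the 2 arrays was read from marker lists. Contractile smooth muscle genes, all measured on both arrays, had 7 of 9 higher and a median of 0.18. The highest values were in Actg2 (0.52 ± 0.07), Cnn1 (0.51 ± 0.09) and Des (0.49 ± 0.06). The 2 lower were Smtn (-0.09 ± 0.07) and Acta2 (-0.01 ± 0.05). Adventitial fibroblast genes had 6 of 8 higher and a median of 0.29, led by Lum (0.88 ± 0.11), Pi16 (0.83 ± 0.08) and Dcn (0.55 ± 0.02), which lie as high as the leading members. The 2 lower were Col1a2 (-0.06 ± 0.05) and Col3a1 (-0.03 ± 0.05). The summed intensity of the fibroblast list, scaled to the control array, was 119333 in the aneurysm array and 111568 in the control array. That of the smooth muscle list was 93380 in the aneurysm array and 79200 in the control array. Of the fibroblast sum in the control array, 62438 came from Col1a2 alone. Col1a1, Col1a2 and Col3a1 are on both the fibroblast and the fibrillar collagen list. Endothelial (6 of 8) and macrophage genes (8 of 9) were also mostly higher, with medians of 0.18 and 0.22. The endothelial gene Eng, at 0.99 ± 0.08 (0.88 with normexp), was higher than any member, and Cdh5 (-0.24 ± 0.09) and Kdr (-0.03 ± 0.06) were lower. Among macrophage genes Cd163 was highest (0.65 ± 0.09), and Cd68 was lower (-0.05 ± 0.06). With normexp the endothelial median was 0.04 with 5 of 8 higher, and on median signal 0.00 with 4 of 8 higher.

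Markers of tissue outside the wall were mostly higher in the control array. All 12 measured hepatocyte genes were, 7 of them above background on both arrays, with a median of -5.34 (-3.30 with normexp), in which 5 of the 12 values are bounds. These 5 genes cleared background in the control array only and could count only as higher there. The median of the 7 measured on both arrays was -5.36. The summed intensity of the 12, scaled as above, was 417 in the aneurysm array and 15786 in the control array, a ratio of 0.026. This ratio was 0.51 for 8 oligodendrocyte genes, 0.79 for 8 neuron genes, 0.23 for 5 pituitary genes and 0.53 for 4 erythrocyte genes. In the control array Mbp held 94954 of the oligodendrocyte sum of 104664, and Hba-a1 held 67653 of the erythrocyte sum of 92597. The neuron median was -0.22 with 2 of 8 higher, and 0.08 with 5 of 8 higher when scaled on the spike-in controls. Slc17a7, among the higher genes both times, cleared background in the aneurysm array only and could count only as higher. Of the 7 neuron genes measured on both arrays, 1 was higher as reported, and the median was -0.23. Most markers of tissue outside the wall and most members thus differed in opposite directions, and the part of this tissue content in the differences of the members was not tested.

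When the arrays were centred on the contractile smooth muscle list, the member median was 0.34 and Mfap4 was the 1 member still past 1.5-fold, at 0.64. Over all genes, 232 were then at least 1.5-fold higher. When the arrays were centred on the fibroblast list, the member median was 0.24, with Mfap4 at 0.54, Eln at 0.43 and none past 1.5-fold. Over all genes, 155 were then at least 1.5-fold higher. On that scale Efemp2 was at -0.21 and Emilin1 at -0.40. Scaling on the spike-in controls moved the other way, to a median of 0.83, with 7 members past 1.5-fold and Mfap4 (1.12) and Eln (1.01) past 2-fold. Of all genes, 16.5% were then past 1.5-fold and 2.55% past 2-fold, and their median was 0.30. This scaling shifts all genes alike, so the member median relative to all genes stays near 0.53 by construction.

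**Figure D5:**
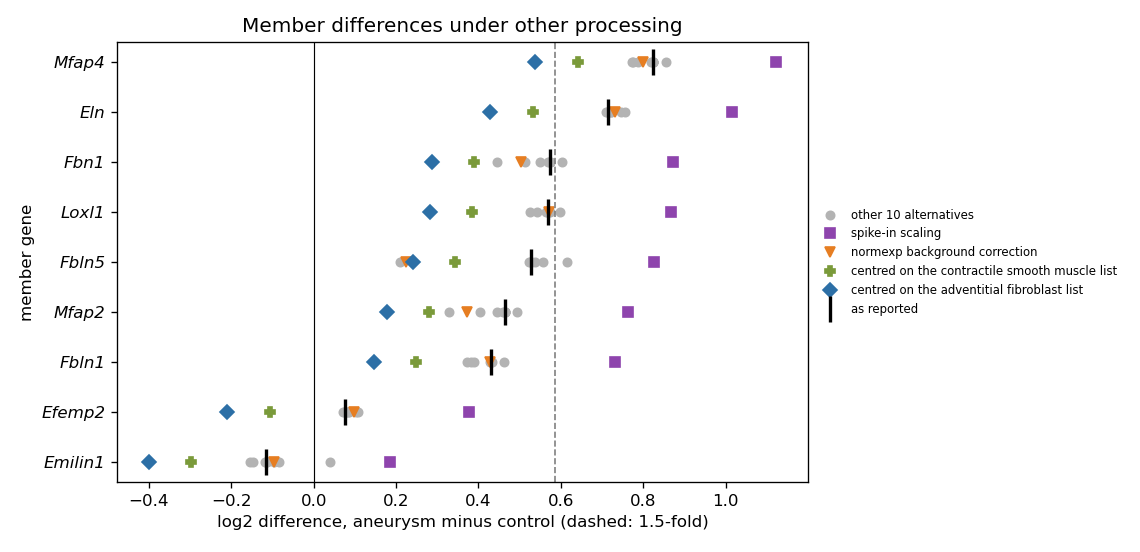
Log2 difference, aneurysm minus control, of each member as reported (black bar) and under 14 alternatives, with 4 of them marked. Apart from Efemp2 and Emilin1, all members stay right of 0 under each alternative, from 0.15 for Fbln1 centred on the fibroblast list to 1.12 for Mfap4 with spike-in scaling.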

How the data were processed

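The authors deposited the scanner output of 2 one-colour (Cy3) Agilent arrays on 1 slide, 1 per group, read, per the file headers, with the software Feature Extraction, version 10.10.1.1. The values taken from the deposited files are processed spot intensity on a linear scale, its error, and median spot and local background intensity. Flags (0 or 1) mark whether a spot is well above background, saturated or an outlier.

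Intensities were put on the log2 scale, the 75th percentile of the 58717 non-control spots was subtracted per array (801 in the aneurysm and 621 in the control array), outlier spots were dropped and spots of a probe averaged. Of non-control spots, 76.4% in the aneurysm and 74.7% in the control array were well above background, and 0 were saturated. Of 30367 probes, 18006 matched 1 RefSeq gene by accession without version. The array was designed on rn4 and the gene table and promoters are RefSeq GRCr8, so only names and promoter windows were used. Among the probes of a gene that cleared the background of either array, the brightest stood for the gene. A gene above background on 1 array only got a bound, taken against its dim value or against the lowest value above background, whichever was higher. No mean-signal column was held, so normexp (limma 3.58.1, R 4.3.3, offset 50) ran on processed signal, as planned, and on median signal minus local background. The code was tested on simulated data. Of each related list, up to 4 genes with the largest difference are named, with all lysyl oxidases, Fbn2, Efemp1 and Mfap5. Of each wall marker list up to 3 are named, with the lower smooth muscle, endothelial and macrophage genes and the collagens of the fibroblast list. Members and lists were chosen with earlier results of these data known.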

Additional observations from a re-analysis of the deposited data

How the results depend on the processing

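Over 11 planned and 3 later alternatives, the members other than Efemp2 and Emilin1 were higher in the aneurysm array each time. Without a filter, with every spot above background or with outlier spots kept, no member could move. The reason is that all member spots clear the background and 0 of them are outliers. These alternatives are counted in the totals but do not test the members. Taking the mean over probes could move only Eln and Emilin1, the members with 2 probes. Efemp2 was above 0 in 12 of 14, and Emilin1 in 2 of 14 (0.18 with spike-in scaling and 0.04 as the mean of its probes). The member median of 0.53 was 0.43 with normexp, 0.37 with normexp on median signal, 0.83 with spike-in scaling, 0.34 centred on smooth muscle genes and 0.24 centred on fibroblast genes. At least 1.5-fold higher were 2 members as reported (4.25% of all genes) and 4 with median centring (4.75%). With spike-in scaling 7 were (16.5%), 2 of them 2-fold (2.55%). Centred on smooth muscle genes 1 was, and on fibroblast genes 0, beside 232 and 155 of all genes. Fbn1 and Loxl1 lie close to the 1.5-fold line. Over all genes, 506 were at least 1.5-fold higher and 1003 lower, so that 33.5% of these were higher. With normexp these were 114 and 562 (16.9%), and 93 and 552 (14.4%) when it ran on median signal. Spike-in scaling gave 1973 and 561 (77.9%), quantile normalization 726 and 818 (47.0%). They were 722 and 1620 without a filter and 308 and 621 with every spot above background. Centred on smooth muscle genes they were 232 and 1598 (12.7%), and on fibroblast genes 155 and 2169 (6.67%). Medians of related lists were above 0 in 14 of 14 for other elastic fibre genes and elastin-degrading proteases, 13 for elastin receptors, 12 for other crosslinking genes, 11 for TGF-beta genes, 6 for protease inhibitors and 3 for fibrillar collagens. Where Prtn3, Mmp12, Itgb3 and Tll2 had a value, these medians include them, and as bounds they could enter only as higher. The counts and medians given for their lists in the Results leave them out. The offset of normexp shrinks dim genes by construction, and a common shift moves all genes alike. The 3 later alternatives (the normexp on median signal and both list centrings) were chosen after seeing the data. No paired analysis was possible because each group has 1 array.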
